A study of Mus musculus with 2 samples.

Results

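The genes of the mitochondrial respiratory chain and of the ATP synthase were compared between the dormant melanoma line B16F1-GFP-D and its maternal line B16F1-GFP-M. Members were chosen by name alone: every gene on the array whose name begins with *Nduf*, *Uqcr*, *Atp5* or *Cox4* to *Cox8*, together with *Sdha*, *Sdhb*, *Sdhc*, *Sdhd* and *Cyc1*. This rule found 90 genes with 129 probes among the 27783 genes of the array, each read from its brightest probe. Of the 90 genes, 86 were detected, as were 12539 of all genes, where a gene was taken as detected if either line exceeded background clearly on both arrays, by the scanner software's flag. The 4 members that were not detected were *Cox4i2*, *Cox7b2*, *Cox8b* and *Cox8c*, all isoforms of complex IV subunits. By their known place, 82 of the 90 genes encode subunits of complexes I to V, and 8 carry a fitting name without being subunits.

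B16F1 is a mouse melanoma cell line, and both lines compared here carry green fluorescent protein (GFP). B16F1-GFP-M was the line injected into mice. B16F1-GFP-D was grown from GFP-positive cells sorted out of pooled organs of control and immunised mice that had stayed free of tumours. A single such isolate formed colonies, so that B16F1-GFP-D stands for 1 derived line and not for dormant cells in general. Both lines were grown untreated in the same serum-containing medium and their total RNA was hybridised together on 2 Agilent arrays of 1 slide, with the dyes exchanged. Array 1 held B16F1-GFP-D in Cy3 and B16F1-GFP-M in Cy5, and array 2 the reverse. There was 1 replicate per line, so no test between the lines could be made. The standard deviation (SD) given beside a value is that between the 2 arrays, which holds dye effects and no variation between cultures. All log2 ratios divide B16F1-GFP-D by B16F1-GFP-M after background correction and loess normalisation, so that a positive value means a higher level in B16F1-GFP-D. In place of a test, a gene was called higher or lower when it passed 1.5-fold, or 2-fold where so stated, in the same direction on each array.

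No spot was saturated, and none of the members' spots was an outlier. The members were bright, the median ratio of their signal to the local background being 159 to 268 in the 4 channels, against 1.66 to 2.60 for all spots. Of 12 names of melanocyte markers, 11 were matched to separate genes on the array, and all 11 were detected in both lines. The log2 of their summed intensity, set mainly by the brightest, lay between 18.4 and 18.8 in the 4 channels. Single melanocyte markers had log2 ratios from -0.92 for *Mitf* to 0.37 for *Gpr143*. Markers of other cell types were mostly not detected: 1 of 7 for fibroblasts, 3 of 7 for leukocytes, 1 of 5 for endothelial cells, 0 of 5 for epithelial cells and 1 of 6 for striated muscle. In the same order, 1, 3, 1, 0 and 0 were detected on both arrays in B16F1-GFP-D. In B16F1-GFP-M these counts were 1, 1, 0, 0 and 1. Over these 5 lists the log2 of the summed intensity lay between 8.50 and 9.63 in every channel.

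The respiratory chain sits in the inner mitochondrial membrane. Complex I takes electrons from NADH and complex II from succinate, both hand them to ubiquinone, complex III passes them to cytochrome c, and complex IV to oxygen. Complexes I, III and IV pump protons, and the ATP synthase, complex V, lets the protons flow back and makes ATP. Most subunits are encoded in the nucleus and a few in mitochondrial DNA, and some nuclear subunits have isoforms used in particular tissues.

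More of the members were higher in B16F1-GFP-D than lower. Of the 86 detected members, 54 lay above 0 on both arrays, or 62.8%, against 41% of all detected genes. There were 22 below 0 on both arrays, or 25.6%, against 42.8% of all detected genes, and 10 had opposite signs. Past 1.5-fold, 15 members were higher, or 17.4%, against 8.77% of all detected genes, and 3 were lower, or 3.49%, against 7.02%. Past 2-fold, 4 were higher, or 4.65%, against 3.09%, and 1 was lower, against 1.94%. The median log2 ratio of the members was 0.26, at 0.26 on array 1 and 0.25 on array 2, against -0.01 for all detected genes. The pooled SD of the members between arrays was 0.14, and across them the arrays had a Pearson correlation of 0.943, against 0.927 over all detected genes; genes of 1 pair of RNAs are not independent replicates. Centring each array on its median in place of loess raised the median of the members to 0.55 and left 1 member past 1.5-fold in each direction, with the median of all detected genes at -0.86 on array 1 and 1.02 on array 2.

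The sizes differed between the complexes. The median log2 ratio was 0.17 for the 36 subunits of complex I, 0.80 for the 4 of complex II, 0.44 for the 9 of complex III, 0.19 for the 14 detected of complex IV and 0.40 for the 15 of complex V. On array 1 these medians were 0.19, 0.81, 0.34, 0.28 and 0.37, and on array 2 they were 0.25, 0.89, 0.56, 0.14 and 0.52, in the same order of complexes. Complex II was thus the farthest above 0 on each array. Complexes I and IV were the nearest to 0 on each array. Complexes I and IV changed order between the arrays, as did complexes III and V, so that neither pair differed beyond its spread.

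**Figure D1:**
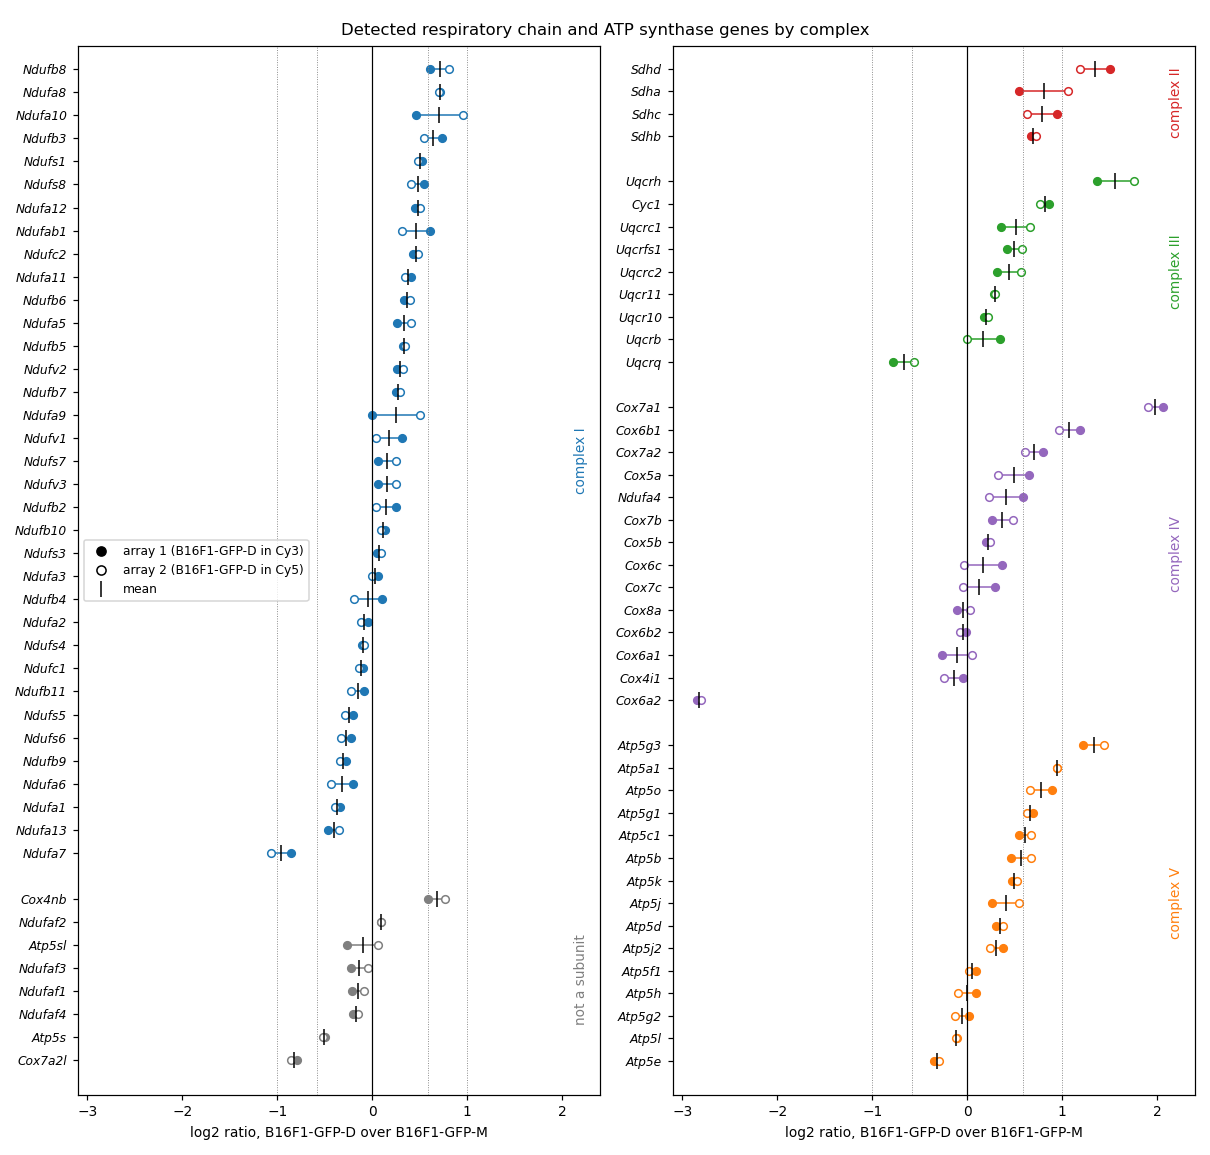
Log2 ratio of the lines (x axis, positive where B16F1-GFP-D is higher) for 85 of the 86 detected members, grouped by complex, with array 1 as filled points, array 2 as open points and a bar at their mean; dotted lines mark 1.5-fold and 2-fold. All 4 complex II genes lie to the right of 0, complex I spreads on both sides, and the 2 extremes, *Cox6a2* at -2.82 and *Cox7a1* at 1.98, are isoforms of complex IV subunits.

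Complex I is built of core subunits, which carry the electrons and drive the pump, and of accessory subunits around them. All 7 nuclear core subunits lay above 0 on both arrays, against 41% of all detected genes. Their median log2 ratio was 0.29, but none passed 1.5-fold. Among them were the iron-sulphur proteins *Ndufs1*, at 0.50 ± 0.03 (SD, 2 arrays), and *Ndufs8*, at 0.48 ± 0.10. *Ndufv1*, the subunit that binds NADH, had 0.18 ± 0.19, more spread than its distance from 0. *Ndufs3* was the lowest with 0.07 ± 0.03.

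The 29 accessory subunits of complex I went both ways. On both arrays 16 lay above 0, or 55.2%, against 41% of all detected genes, and 11 below, or 37.9%, against 42.8%. Their median was 0.15. *Ndufa8* and *Ndufb8*, which belong to the membrane-bound part, passed 1.5-fold. Of all 36 subunits of complex I these were 5.56%, against 8.77% of all detected genes, and 2.78% were lower, against 7.02%. Complex I thus had fewer calls than all detected genes in both directions. *Ndufa8* had a normalised log2 intensity of 12.33 in B16F1-GFP-M and 13.05 in B16F1-GFP-D on array 1, and 12.47 and 13.17 on array 2, a log2 ratio of 0.71 ± 0.01. *Ndufb8* had 14.10 and 14.70 on array 1 and 13.68 and 14.49 on array 2, a log2 ratio of 0.71 ± 0.14. The levels in B16F1-GFP-D were above those in B16F1-GFP-M for both genes and on both arrays. A second, much dimmer probe of *Ndufb8*, matched to another transcript, gave only 0.07.

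*Ndufa7* was the 1 subunit of complex I past 1.5-fold in the other direction. Its log2 intensity was 15.13 in B16F1-GFP-M and 14.27 in B16F1-GFP-D on array 1, and 15.29 and 14.22 on array 2, a log2 ratio of -0.96 ± 0.15, or 1.95-fold lower in B16F1-GFP-D. The levels of the lines did not overlap, and the second probe of *Ndufa7* gave -0.84. The other 10 accessory subunits below 0 on both arrays ranged from -0.41 for *Ndufa13*, also known as a cell death regulator, to -0.09 for *Ndufa2*. In decreasing size they were *Ndufa13*, *Ndufa1*, *Ndufa6*, *Ndufb9*, *Ndufs6*, *Ndufs5*, *Ndufb11*, *Ndufc1*, *Ndufs4* and *Ndufa2*. With the arrays centred on their medians in place of loess, only *Ndufa7*, *Ndufa1* and *Ndufa6* of all 11 kept a negative mean. All 23 subunits above 0 kept their sign. That centring raised the median of complex I from 0.17 to 0.46, so it cannot compare how firmly the increases and the decreases hold.

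Complex II, the succinate dehydrogenase, also works in the citric acid cycle and is the only complex of the chain without a mitochondrially encoded subunit. All 4 of its genes lay above 0 on both arrays, against 41% of all detected genes. Past 1.5-fold were 3 of them, or 75%, against 8.77%. *Sdhd*, which with *Sdhc* anchors the enzyme in the membrane, had a log2 intensity of 12.11 in B16F1-GFP-M and 13.61 in B16F1-GFP-D on array 1, and 12.08 and 13.27 on array 2. Its log2 ratio of 1.35 ± 0.22, or 2.54-fold, was the highest of the complex. *Sdhc* had 11.22 and 12.16 on array 1 and 11.28 and 11.91 on array 2, a log2 ratio of 0.79 ± 0.22.

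*Sdhb*, the iron-sulphur subunit, had 12.81 and 13.48 on array 1 and 12.80 and 13.52 on array 2, a log2 ratio of 0.70 ± 0.03. *Sdha*, the flavoprotein that oxidises succinate, had 9.55 and 10.10 on array 1 and 9.55 and 10.62 on array 2, a log2 ratio of 0.81 ± 0.36. It fell short of 1.5-fold on array 1, where its log2 ratio was 0.55. The probes of *Sdha* differed: a second one of nearly the same brightness gave 0.52, and a dim probe matched to another transcript gave -0.17. For all 4 genes the levels in both B16F1-GFP-D channels were above those in both B16F1-GFP-M channels. The share of all detected genes whose lines do not overlap was not counted, here or for the other genes named.

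**Figure D2:**
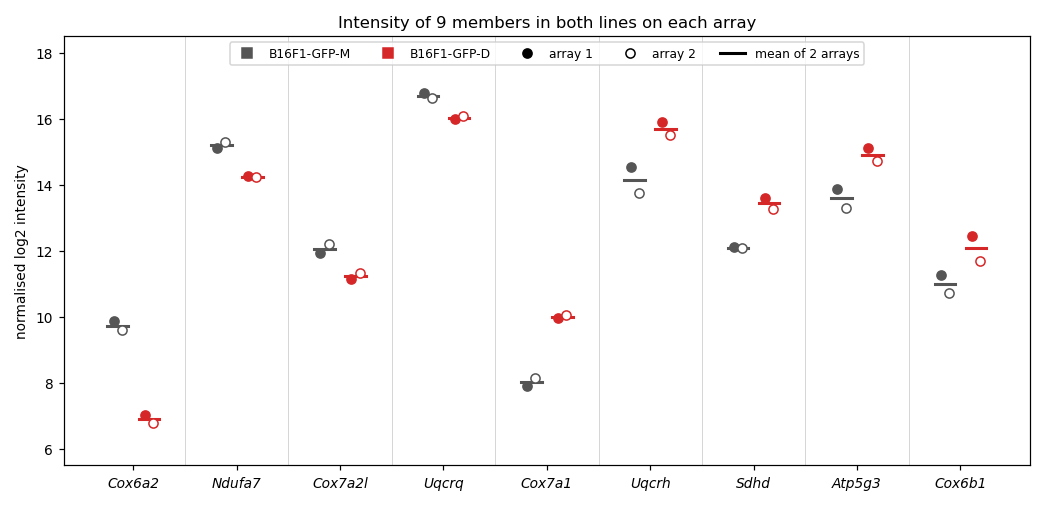
Normalised log2 intensity (y axis) of 9 members in B16F1-GFP-M (grey) and B16F1-GFP-D (red), with array 1 as filled points, array 2 as open points and a line at their mean; intensities are comparable between lines of 1 gene, not between genes. The 9 genes are the members with the largest mean log2 ratios in each direction, so that the lines do not overlap largely follows from the choice. *Cox6a2*, *Ndufa7*, *Cox7a2l* and *Uqcrq* are lower in B16F1-GFP-D, and *Cox7a1*, *Uqcrh*, *Sdhd*, *Atp5g3* and *Cox6b1* are higher.

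In complex III, 7 of 9 subunits lay above 0 on both arrays, or 77.8%, against 41% of all detected genes. Past 1.5-fold were 2, or 22.2%, against 8.77%. *Uqcrh*, the hinge protein that helps cytochrome c to dock, had a log2 intensity of 14.53 in B16F1-GFP-M and 15.89 in B16F1-GFP-D on array 1, and 13.74 and 15.50 on array 2. Its log2 ratio was 1.56 ± 0.28, or 2.95-fold, and its second probe gave 1.66. *Cyc1*, the cytochrome c1 that passes electrons on to cytochrome c, had 13.42 and 14.28 on array 1 and 13.45 and 14.22 on array 2, a log2 ratio of 0.82 ± 0.06. For both genes the lines did not overlap.

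The Rieske iron-sulphur protein *Uqcrfs1*, at 0.50 ± 0.11, and the core proteins *Uqcrc1*, at 0.51 ± 0.22, and *Uqcrc2*, at 0.44 ± 0.17, lay above 0 without passing 1.5-fold on both arrays. *Uqcrq*, a small ubiquinone-binding subunit, was the 1 member of complex III below 0. Its log2 intensity was 16.76 in B16F1-GFP-M and 15.98 in B16F1-GFP-D on array 1, and 16.64 and 16.08 on array 2, a log2 ratio of -0.67 ± 0.16. This value rests on its bright probe, since a dim second probe matched to another transcript gave 0.32 and the median of both was -0.17.

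In complex IV, 7 of 14 detected subunits lay above 0 on both arrays, or 50%, against 41% of all detected genes, and 3 lay below. The extremes of all members were in complex IV. *Cox7a1*, the heart and muscle isoform of subunit VIIa, had a log2 intensity of 7.90 in B16F1-GFP-M and 9.96 in B16F1-GFP-D on array 1, and 8.14 and 10.04 on array 2. Its log2 ratio was 1.98 ± 0.11, or 3.94-fold. *Cox7a2*, the isoform found in most tissues, was also higher, with 14.42 and 15.21 on array 1 and 14.34 and 14.95 on array 2, a log2 ratio of 0.70 ± 0.13. Its second probe gave 0.72.

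*Cox6a2*, the heart and muscle isoform of subunit VIa, went the other way. It had a log2 intensity of 9.87 in B16F1-GFP-M and 7.03 in B16F1-GFP-D on array 1, and 9.58 and 6.79 on array 2, a log2 ratio of -2.82 ± 0.03, or 7.06-fold lower in B16F1-GFP-D. In B16F1-GFP-D it was well above background on 1 of the 2 arrays, and its size therefore depended on the treatment of background: it was -3.74 with an offset of 0 and -4.30 with the scanner software's ratio. *Cox6a1*, the isoform of most tissues, was close to 0, with -0.27 on array 1 and 0.05 on array 2. Of the 6 striated muscle markers, only *Tnnt2* was detected, on both arrays in B16F1-GFP-M and on 1 in B16F1-GFP-D. The log2 of the summed intensity of the list was 8.83 to 8.85 in the 4 channels.

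The other isoform sets of complex IV were read the same way. *Cox6b1*, which lies where the monomers of the complex IV dimer meet, had a log2 intensity of 11.27 in B16F1-GFP-M and 12.45 in B16F1-GFP-D on array 1, and 10.73 and 11.69 on array 2, a log2 ratio of 1.08 ± 0.15 that passed 1.5-fold on both arrays. Its testis isoform *Cox6b2* was dim and had -0.05 ± 0.04. *Cox5a* had 0.49 ± 0.23, *Cox5b* 0.22 ± 0.03, *Cox7b* 0.37 ± 0.16, *Cox8a* -0.04 ± 0.09 and *Cox4i1* -0.14 ± 0.14, none past 1.5-fold. *Ndufa4*, named for complex I but placed in complex IV, had 0.41 ± 0.26. The 60-base probes of these isoforms had runs of at most 6 bases in common.

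Without *Cox6a2* and *Cox7a1*, the median of the remaining 84 detected members was still 0.26.

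In complex V, 11 of 15 subunits lay above 0 on both arrays, or 73.3%, against 41% of all detected genes. Past 1.5-fold were 4, or 26.7%, against 8.77%. The c ring, which turns as protons pass, is made of identical proteins encoded by *Atp5g1*, *Atp5g2* and *Atp5g3*. *Atp5g3* had a log2 intensity of 13.88 in B16F1-GFP-M and 15.10 in B16F1-GFP-D on array 1, and 13.28 and 14.72 on array 2, a log2 ratio of 1.33 ± 0.15, or 2.52-fold. *Atp5g1* had 13.01 and 13.70 on array 1 and 12.84 and 13.46 on array 2, a log2 ratio of 0.66 ± 0.05. *Atp5g2* was at 0.02 on array 1 and -0.13 on array 2, and the mean of its other probe was 0.10. The 3 genes thus differed among themselves by more than the SD between arrays, and their probes had runs of at most 8 bases in common.

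The F1 head holds the catalytic sites. *Atp5a1*, its alpha subunit, had a log2 intensity of 14.24 in B16F1-GFP-M and 15.18 in B16F1-GFP-D on array 1, and 14.07 and 15.01 on array 2, a log2 ratio of 0.94 on each array, and its second probe gave 0.61. *Atp5b*, the beta subunit with the catalytic site, had 0.57 ± 0.15 on its brightest probe, which missed 1.5-fold on array 1, and 0.87, 0.89 and 1.10 on its 3 dimmer probes. *Atp5c1*, the central shaft, had 0.61 ± 0.08. *Atp5o*, which ties the head to the peripheral stalk, had 14.65 and 15.54 on array 1 and 14.55 and 15.21 on array 2, a log2 ratio of 0.77 ± 0.17. Below 0 on both arrays were *Atp5e*, the small epsilon subunit of the head, at -0.32 ± 0.04, and *Atp5l*, the g subunit of the membrane part, at -0.11 ± 0.01, and both had a mean above 0 under median centring.

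The 8 members that are not subunits had a median log2 ratio of -0.14. Below 0 on both arrays were 5 of them, or 62.5%, against 42.8% of all detected genes. *Cox7a2l*, which joins complexes III and IV into supercomplexes, had a log2 intensity of 11.93 in B16F1-GFP-M and 11.14 in B16F1-GFP-D on array 1, and 12.19 and 11.33 on array 2. Its log2 ratio was -0.83 ± 0.04, or 1.78-fold lower in B16F1-GFP-D, and it passed 1.5-fold on both arrays. The complex I assembly factors *Ndufaf1*, *Ndufaf3* and *Ndufaf4* lay between -0.17 and -0.14, and *Ndufaf2* at 0.09. *Atp5s*, now named *Dmac2l*, had -0.51 ± 0.01, and *Atp5sl*, now *Dmac2*, had opposite signs on the arrays. *Cox4nb*, now *Emc8*, belongs to a protein insertion complex of the endoplasmic reticulum and had 0.68 ± 0.13, past 1.5-fold on both arrays.

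The 5 members past 2-fold were read by probes at the following places in the mouse build mm9, as given for the array: *Sdhd* at chr9:50404630-50404689, *Uqcrh* at chr4:115739644-115739703, *Cox7a1* at chr7:30970337-30970948, *Atp5g3* at chr2:73746519-73746578 and *Cox6a2* at chr7:135349160-135349219. All of these are on the minus strand but that of *Cox7a1*, and no annotation of mm9 was at hand to place the probes within exons. Of the 90 members, 74 had a promoter in the RefSeq table of GRCm38.p6, and *Cox6a2* was not among them. The 100 bases before the start site of the 4 genes more than 2-fold higher in B16F1-GFP-D are shown because these are the largest increases among the members, with capitals on the motif CCGGAAG of ETS factors, which here stands on the opposite strand as CTTCCGG.
Sdhd, chr9:50603850-50603949, minus strand: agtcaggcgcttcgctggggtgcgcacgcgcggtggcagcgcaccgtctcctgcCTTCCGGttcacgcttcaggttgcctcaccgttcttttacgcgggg
Uqcrh, chr4:116075071-116075170, minus strand: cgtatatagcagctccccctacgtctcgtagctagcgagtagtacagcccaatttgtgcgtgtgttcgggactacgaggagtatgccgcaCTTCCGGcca
Cox7a1, chr7:30184071-30184170, plus strand: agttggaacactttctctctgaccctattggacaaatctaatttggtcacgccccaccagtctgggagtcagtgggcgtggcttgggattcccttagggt
Atp5g3, chr2:73911327-73911426, minus strand: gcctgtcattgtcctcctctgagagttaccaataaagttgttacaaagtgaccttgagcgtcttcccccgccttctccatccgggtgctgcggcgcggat

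In windows from 250 bases before to 50 bases after the start site, 3 motifs of factors known from promoters of respiratory genes were searched on both strands. The ETS motif CCGGAAG was in 16 of the 65 detected subunits that had a promoter, or 24.6%, against 9.93% of the 27025 genes in the table. The NRF1 motif GCGCATGCG was in 8, or 12.3%, against 1.95%, and the YY1 motif ATGGCGGC in 6, or 9.23%, against 2.61%. The subunits counted were all detected, whereas the 27025 genes also hold genes that were not detected. The shares thus compare unlike sets, and the share among detected genes was not computed. None of these motifs contains another. The median log2 ratio of the subunits with the ETS motif was 0.33 and of those without it 0.31. With and without the NRF1 motif it was 0.33 and 0.31, and with and without the YY1 motif 0.03 and 0.34. The 6 subunits with the YY1 motif were all of complex I, whose median was 0.17. Of them, *Ndufa7*, *Ndufb5*, *Ndufs4* and *Ndufs6* are on chromosomes 3, 13 or 17, where all detected genes had a median of -0.16. The motif therefore cannot be told apart from complex and chromosome here. A match is a run of letters and not a measured binding site.

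Since the members are bright, their ratios were set beside those of all detected genes in bands of brightness. Of the 86 detected members, 73 were among the 3135 brightest detected genes, where the median log2 ratio was 0.29 for them and -0.03 for all genes. Below a mean log2 intensity of 12 the median was 0.21 for 20 members and -0.01 for all 10960 genes. Between 12 and 14 it was 0.37 for 26 members and -0.01 for all 1177 genes. Between 14 and 15 it was 0.28 for 24 members and 0.08 for all 217 genes. Above 15 it was -0.05 for 16 members and -0.11 for all 185 genes, and 6 of these 16 members lay below 0 on both arrays, against 89 of the 185 genes, or 48.1%. The median of the members thus lay above that of all detected genes, members included, in each of these bands. Above 15 the distance was small, and the median of the members was no longer above 0.

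**Figure D3:**
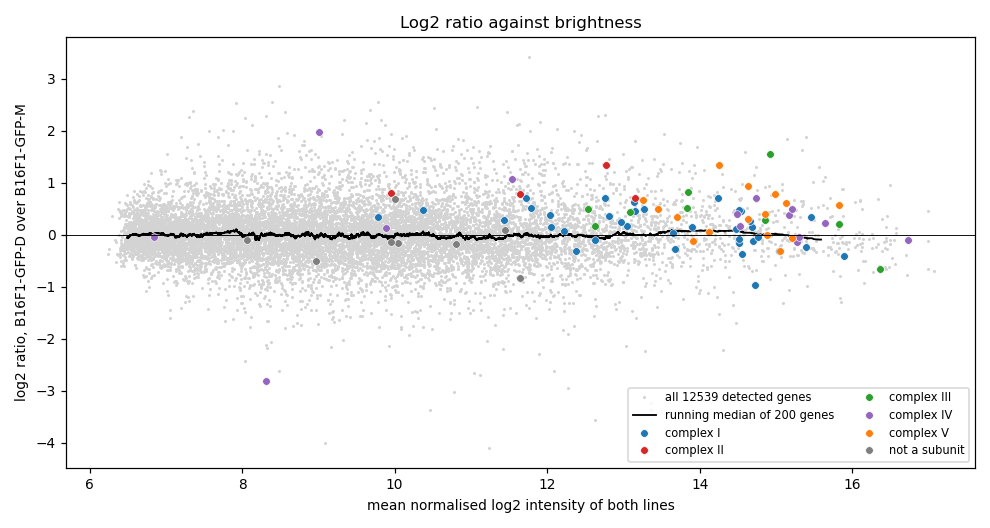
Log2 ratio of the lines (y axis, positive where B16F1-GFP-D is higher) against the mean normalised log2 intensity of both lines (x axis) for all 12539 detected genes in grey, with a running median of 200 genes in black and the members coloured by complex. Most members lie to the right and above the running median, and those with an intensity above 15 lie on both sides of 0.

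All detected genes of chromosomes 3, 13 and 17 together had a median log2 ratio of -0.16, against 0.01 for the other chromosomes. The 16 members on these 3 chromosomes, *Ndufa7* and *Cox7a2l* on chromosome 17 and *Sdha* on chromosome 13 among them, had a median of 0.12, against 0.32 for the other 70. The part of the chromosomes in the members' values was not tested.

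Other genes of the pathway were read from a pair of lists. The assembly factors build the complexes without staying in them. Of 45 names listed, 41 were matched to separate genes on the array. All 41 were detected, with a median log2 ratio of -0.01, as for all detected genes. On both arrays 15 lay above 0, or 36.6%, against 41% of all detected genes, and 16 below, or 39.0%, against 42.8%. None was past 1.5-fold higher, against 8.77% of all detected genes. Past 1.5-fold lower were 2, or 4.88%, which is below the 7.02% of all detected genes. They were *Cox16*, a complex IV assembly factor, at -1.16 ± 0.13, past 2-fold, and *Coa4*, another, at -0.71 ± 0.12.

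The second list held the mobile electron carriers, enzymes that make or reduce ubiquinone, and partners of the ATP synthase. It also held *Usmg5*, a small subunit of the ATP synthase under its older name. Of 25 listed, 21 were detected, with a median of 0.40, which is the value of *Usmg5*. On both arrays 16 lay above 0, or 76.2%, against 41% of all detected genes, and 3 below, or 14.3%, against 42.8%. Past 1.5-fold, 6 were higher, or 28.6%, against 8.77% of all detected genes, and none lower, against 7.02%. *Cycs*, cytochrome c, was the highest, at 1.24 ± 0.36. The ADP/ATP carriers *Slc25a5* and *Slc25a4* had 1.14 ± 0.12 and 1.11 ± 0.40, and the phosphate carrier *Slc25a3* had 0.84 ± 0.01. *Aifm1*, a flavoprotein needed for complex I, had 0.99 ± 0.09, and *Dhodh*, which reduces ubiquinone while making pyrimidines, had 0.75 ± 0.08. The 3 below 0 on both arrays were *Etfb*, at -0.26 ± 0.05, *Coq10b*, at -0.21 ± 0.03, and *Atpif1*. The last, the inhibitor of the ATP synthase, had -0.54 on array 1 and -0.08 on array 2.

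**Figure D4:**
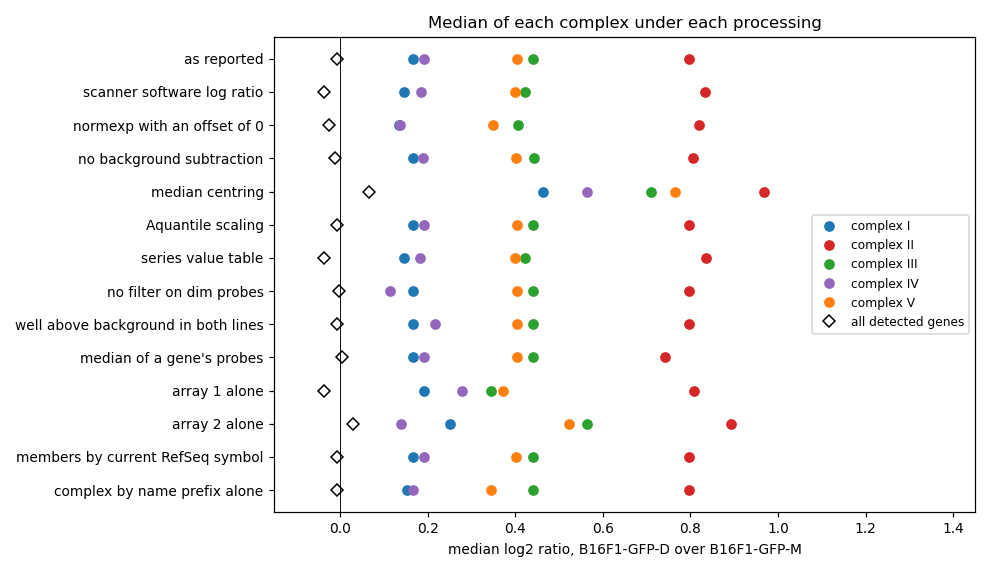
Median log2 ratio of the lines (x axis, positive where B16F1-GFP-D is higher) of each complex, as coloured points, and of all detected genes, as open diamonds, under each way of processing (y axis). Complex II keeps the highest median throughout, from 0.74 to 0.97, and median centring gives the other complexes their highest values, at 0.46, 0.71, 0.56 and 0.76 for complexes I, III, IV and V.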

How the data were processed

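RNA of both lines was compared on 2 Agilent 2-colour arrays. The authors scanned them with Agilent Feature Extraction, version 10.7.3.1 in the submitters' processing notes. The deposited intensities, of the spots and of their surroundings, carry no normalisation. The deposited log10 ratio of Cy5 over Cy3 had been background-subtracted and dye-normalised by the scanner software, and the series table repeats it, rounded; both were used only as alternatives. Flags for spots well above background and for outliers are the authors' software's, coded as a deposited score of 0 or 1.

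Background was removed from the mean signals with normexp (limma 3.58.1 in R 4.3.3; offset 50, which shrinks the ratios of dim spots), and each array was then normalised by loess. The 143 outlier spots of array 1 and the 176 of array 2 were dropped. Ratios were turned to B16F1-GFP-D over B16F1-GFP-M, spots of a probe were averaged and a gene took its brightest of 41164 probes in all. Positions are those of the array on mm9; current names and promoters come from RefSeq tables of GRCm38.p6, in which 116 of the members' 129 probes had a symbol. Tables and figures used matplotlib 3.10.9, pandas 2.3.3 and numpy 2.4.6 in Python 3.11.15.

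The members, lists and markers were chosen with earlier results of these data known, and complexes were assigned from textbook knowledge. Named genes were, in each complex, the highest and the lowest member, every member past 1.5-fold or below 0 on both arrays, the core subunits, the isoform sets, members whose probes differ in sign, those that are not subunits, and genes of the lists past 1.5-fold. *Atpif1*, *Etfb*, *Coq10b* and the mitochondrially encoded genes were added after their values were seen. With 1 replicate per line there is no test, and precision is limited by having 2 arrays. A result is not reported here. Alternatives were other background corrections and scalings, the scanner's ratios, each array alone, a gene's median probe, other filters on brightness, and membership by current symbol or by name prefix.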

Additional observations from a re-analysis of the deposited data

How the results depend on the processing

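No paired analysis was possible because there was 1 replicate per line. Both arrays share 1 slide, so that no block for the slide could be fitted. Each summary value or count was recomputed under each alternative that applies to it. In 145 of these recomputations it moved by less than the SD between arrays, or for counts by less than 1.5 times, in 23 it moved by more, and in 3, all of the median of the assembly factors, it changed sign. Of the 63 members named, 18 were past 1.5-fold, and none of these 18 changed sign under any alternative. For each array alone this follows from the choice, since they passed 1.5-fold in the same direction on each array. The filters on brightness did not alter their values, so that only the other alternatives could have changed a sign. Median centring moved the most: the median of all members became 0.55, those of complexes I to V 0.46, 0.97, 0.71, 0.56 and 0.76, the members above 0 on both arrays 5 and below 0 on both arrays 1, with 1 member past 1.5-fold higher, 1 lower, and 1 past 2-fold higher. The arrays then had all-gene medians of opposite sign, so that few genes could have the same sign on both. The median of all members was 0.24 both with the scanner's ratios and with those of the series table, 0.21 with an offset of 0, 0.21 with no filter on dim probes, 0.27 where both lines had to exceed background and 0.29 with members by current symbol. Requiring both lines above background left 0 members past 2-fold lower, since *Cox6a2* then drops out. With each array alone, the median was 0.25 to 0.26 for all members, 0.19 to 0.25 for complex I, 0.81 to 0.89 for complex II, 0.34 to 0.56 for complex III, 0.14 to 0.28 for complex IV and 0.37 to 0.52 for complex V, and 1 to 2 members were past 2-fold lower. The median of the assembly factors, near 0 throughout, changed sign to 0.129 with median centring, 0.0324 when a gene took the median over its probes and 0.0190 on array 2 alone, with -0.0276 on array 1 alone. Most members were far above background, and *Cox6b2*, *Atp5sl*, *Cox6a2*, *Atp5s* and *Cox7a1* were the dimmest of those detected.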

Other observations

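The array also carried probes named for mitochondrially encoded subunits, which the choice by name did not take in and which were picked after their values were seen. *COX2*, the subunit of complex IV that receives electrons from cytochrome c, had log2 ratios of -0.58 and -0.85 on arrays 1 and 2. *ATP6*, the proton channel subunit of the ATP synthase, had -0.56 and -0.10, and *CYTB*, the cytochrome b of complex III, -0.42 and -0.08. All 3 lay below 0 on both arrays. Of the detected nuclear subunits, 7 of 14 in complex IV, 7 of 9 in complex III and 11 of 15 in complex V lay above 0 on both arrays. Their mean log2 intensities were 16.28, 15.05 and 15.48, in the range above 15 where all detected genes had a median of -0.11. The array places the *CYTB* probe on the mitochondrial genome and those of *COX2* and *ATP6* on chromosome 1, in mm9. The part of brightness in these values was not tested.

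Some genes now carry a name that fits the choice but had another on the array. The small ATP synthase subunits *Usmg5*, now *Atp5md*, and *2010107E04Rik*, now *Atp5mpl*, had log2 ratios of 0.40 and 0.44. Of 3 complex I assembly factors, *Ndufaf5* had 0.47, *Ndufaf6* 0.61 and *Ndufaf7* -0.11.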
